A study of Mus musculus with 31 samples.

Results

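The genes described here are the 7516 protein-coding genes chosen by their mean level, at least 5 TPM over all 16 libraries of a 4-thiouridine (4sU) labelling experiment; TPM is a gene's share of a library's transcripts after correction for length. They were taken from 57193 genes and unmatched entries in the exonic part of the deposited table, 21655 of them protein-coding. The measured value used for this choice was the level averaged over both genotypes and both RNA fractions, the same libraries from which the differences below were taken. Of the 7516 genes, 7097 reached 5 TPM in each genotype and 419 in 1 genotype only, so some of those 419 differ between genotypes by construction. The genes nearest the threshold were Srprb, Cxxc5 and Slc35f6 just inside, at 5.003 to 5.006 TPM, and Vps28 and Lrriq4 just outside, both at 4.996 TPM; their ratio differences, defined next, were -0.04, -0.09, 0.22, -0.25 and -0.44.

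The cells were DTCM23/49 XY mouse embryonic stem cells that carry a conditional Dicer1 gene and were grown with serum and LIF. Loss of Dicer1 was induced with 800 nM 4-hydroxytamoxifen (4-OHT). The labels give 8 days of treatment for the wild-type (WT) and the Dicer-depleted (KO) cells alike, without saying what kept Dicer1 in the WT cells. That dose is recorded for the KO libraries and left blank for the WT libraries, so whether WT cells received it is uncertain. Each genotype had 2 cultures, called replicates 1 and 2 in the labels and biological by their tag. Every culture was given 200 µM 4sU for 10 and for 15 minutes, and RNA made during the pulse (labelled) was separated from RNA made before it (preexisting), which gives 4 libraries a culture. The labels do not assign the 2 cell line numbers to cultures. The comparison asked whether the balance between RNA that was already there and RNA just made differed once microRNAs were depleted. For each gene and culture, log2(preexisting TPM + 1) minus log2(labelled TPM + 1) was taken at 10 and at 15 minutes and averaged; this value is called the ratio. The difference of the ratio is KO minus WT, on the same log2 scale.

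Dicer cuts microRNA precursors into the mature microRNAs that Argonaute proteins carry. A microRNA pairs through its seed, bases 2 to 8, with a matching site in the 3′ UTR of an mRNA, and TNRC6 proteins then recruit deadenylases and decapping enzymes that shorten the life of that mRNA. An mRNA that decays more slowly gathers more preexisting RNA for the same amount of new RNA, so its ratio is higher. In embryonic stem cells the miR-290 cluster and its relatives with the seed AAGUGCU are the best known microRNAs and are known for holding down inhibitors of the cell cycle. TPM values are relative to all other RNA of the same library, so the ratio gives a gene's rank against other genes and no absolute decay rate.

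The microRNAs shown here are those of the 3 seed families on which the account of target sites rests; the mature sequences are from RefSeq (GRCm38.p6) and the capitals mark the seed.
miR-295-3p: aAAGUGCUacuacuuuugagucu
miR-294-3p: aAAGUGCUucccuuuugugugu
miR-291a-3p: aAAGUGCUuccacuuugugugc
miR-302d-3p: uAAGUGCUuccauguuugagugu
miR-17-5p: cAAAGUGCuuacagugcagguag
miR-93-5p: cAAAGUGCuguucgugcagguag
miR-92a-3p: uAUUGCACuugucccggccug
miR-25-3p: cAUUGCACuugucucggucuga
The first 4 share 1 seed and match the site AGCACTT. The miR-17/93 seed is the same run of bases shifted by 1 position and matches GCACTTT, and the miR-25/92 seed matches GTGCAAT. In the small RNA libraries of the Dicer-depleted line, reads of the miR-290 family were 23225 ± 2517 RPM (reads scaled to all reads of a library) at day 0 (SD, n = 3) and 512 ± 148 RPM at day 8, or 2.20% of the earlier level. The miR-17/93 family was at 1.86% and the miR-25/92 family at 2.83% of its day 0 level.

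The sites printed next lie in 3′ UTRs of genes that recur in the results, with the match in capitals and GRCm38 coordinates of the match.
Casp2, chr6:42281558-42281564, plus strand: ataacctagaAGCACTTgtctctgct
Rbl2, chr8:91123830-91123836, plus strand: ttttcaataaAGCACTTataaatta
Ei24, chr9:36779889-36779895, minus strand: ctgtttttttAGCACTTgccagctcc
Lats2, chr14:57691087-57691093, minus strand: gtatggaaagAGCACTTattttgtgg
Syap1, chrX:162857464-162857470, minus strand: atcaaaagaaAGCACTTtcaaaatat
Zkscan1, chr5:138102210-138102216, plus strand: tccacaaattAGCACTTgattgtata
Zkscan1, chr5:138102714-138102720, plus strand: tggcattttgAGCACTTgctgagttg
Zkscan1, chr5:138104311-138104317, plus strand: ttatatgtaaAGCACTTgatattaaa
Syap1 has a T directly after the match, so that the same bases also hold a miR-17/93 match, and the Rbl2 and Lats2 matches are followed by A, the form with the longest match. A match describes the sequence and does not show that a microRNA binds there.

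Dicer1 itself was checked first. In the preexisting fraction its level was 13.4, 17.6, 17.9 and 17.2 TPM in the 4 WT libraries and 1.20, 3.23, 3.37 and 2.95 TPM in the 4 KO libraries. In the labelled fraction it was 7.83, 7.34, 8.07 and 9.65 TPM in WT and 3.52, 3.10, 2.35 and 2.52 TPM in KO, so the genotypes did not overlap in either. The ratio of Dicer1 was 0.93 and 0.92 in the WT cultures and -0.50 and 0.27 in the KO cultures, a difference of -1.04 (SE 0.32), and its intronic signal in labelled RNA differed by 0.27. Markers of naive embryonic stem cells, such as Pou5f1, Sox2 and Nanog, summed to 1788 to 1934 TPM in WT and 1635.4 to 1752.1 TPM in KO preexisting libraries. Of 9 primitive endoderm markers the sum was 380 to 536 TPM in WT and 678 to 923 TPM in KO, while Gata6, Sox17, Col4a1 and Col4a2 stayed under 1 TPM in every library. The 4 mesoderm markers summed to at most 1.01 TPM in any library. The 7 fibroblast markers summed to 65.0 to 92.8 TPM in WT and 96.7 to 175 TPM in KO preexisting libraries, with Col1a1, Col1a2 and Col3a1 under 1 TPM throughout. Only 1 of the 7 fibroblast and 2 of the 9 primitive endoderm markers reached a mean of 5 TPM, so both sums rest mainly on these. Other markers went the other way. Thy1, a fibroblast marker, was under 1 TPM in every KO library but not in every WT library. Gata4, a primitive endoderm marker, was under 1 TPM in every KO but not in every WT labelled library. In bulk RNA, fewer cells of a type and less RNA per cell cannot be told apart. Intronic entries took 15.5 to 18.4% of the signal in WT and 18.5 to 23.3% in KO labelled libraries, and 4.41 to 5.49% and 5.37 to 6.68% in preexisting ones; the part of this shift in the results was not tested. Without read counts the depth of these libraries is not known, and values carry no interval for counting error.

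No gene passed the threshold for a different ratio. limma's test of 2 KO against 2 WT cultures called 0 of 21821 genes and entries (0%) at a Benjamini-Hochberg adjusted p under 0.05; 977 (4.48%) had an unadjusted p under 0.05. The model of all 8 culture means of both fractions called 1 entry (0.00458%), Gm47294, which is not one of the 7516. That model takes the 2 fractions of a culture as separate observations, although they come from the same cells. Among the 7516 genes the smallest adjusted p was 0.419, and 257 of them (3.42%) had an unadjusted p under 0.05. The median difference was 0.04, the quartiles were -0.16 and 0.24, and the whole range was -2.99 to 1.84. A difference above 1 was seen in 53 genes and one below -1 in 59. The 95% interval, unadjusted for the number of tests, reached 0.73 to either side of a gene's value in the median gene. Differences smaller than that were mostly not detectable with 2 cultures a genotype. Larger ones did not pass after adjustment either, down to the lowest of -2.99 and up to the highest of 1.84. The KO and WT cultures did not overlap, with KO higher, in 1429 genes (19%; 14.7% of all tested) and with KO lower in 968 (12.9%; 17.6% of all tested). A positive difference was found in 4153 genes (55.3%, against 47.8% of all tested).

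Each component of the ratio was also compared on its own. In the preexisting fraction alone, 0 of 21821 genes passed the adjusted threshold and 2409 (11%) had an unadjusted p under 0.05. In the labelled fraction alone, 0 passed and 3798 (17.4%) had an unadjusted p under 0.05. In the intronic signal of labelled RNA, a measure of transcription that the ratio does not use, 0 of 14055 passed and 3666 (26.1%) were under 0.05. With the replicate number as a block this last comparison called 4050 (3713 higher, 337 lower). The labels do not say whether a shared number pairs the cultures. Over the 7516 genes the median difference was 0.06 in preexisting RNA, 0.00 in labelled RNA and, for the 7176 genes with intronic signal, 0.29. Centring each library on its median moved the median by -0.10 in preexisting RNA, -0.03 in labelled RNA and -0.07 in the ratio, so the median ratio difference of 0.04 became -0.03 and the direction of genes and lists with a difference between 0 and 0.07 depends on the scaling.

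**Figure D1:**
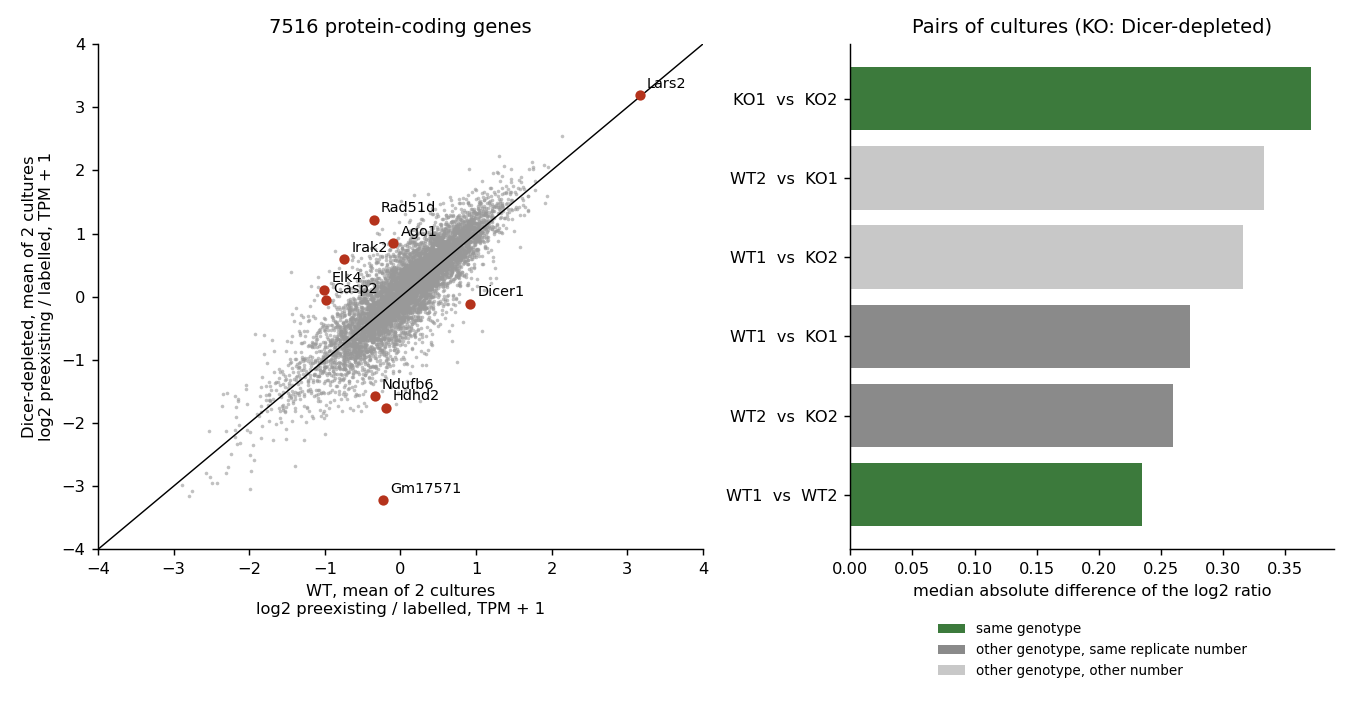
Left, mean ratio of each of the 7516 genes in the 2 WT (x) and the 2 Dicer-depleted cultures (y), both as log2 of preexisting over labelled TPM + 1, with the line of equality and 10 genes named in the text marked. Right, median over genes of the absolute difference in ratio for each pair of cultures; the 2 KO cultures differ most (0.371) and the 2 WT cultures least (0.235).

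Cultures of 1 genotype differed about as much as cultures of different genotypes. The median ratio was 0.15 and 0.08 in the WT cultures and 0.23 and 0.11 in the KO cultures, and 9 in 10 genes had a WT ratio between -0.98 and 0.99. WT replicates 1 and 2 differed by a median of 0.235 in either direction, KO replicates 1 and 2 by 0.371. Between genotypes, cultures with the same number differed by 0.273 (replicate 1) and 0.259 (replicate 2), less than the 2 KO cultures did from each other. Across genes Pearson's r of the ratios was 0.80 between the WT cultures and 0.66 between the KO cultures, as a description over 7516 genes that are not independent. The spread was wider for low genes: in the lowest quintile by level (5.003 to 9.001 TPM) the median SE was 0.32 and in the highest quintile (63.1 TPM and above) 0.27.

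GC content and transcript length moved with this spread. In the quintile of genes with the lowest GC content (32.6 to 43.5%) KO replicate 1 lay 0.15 below KO replicate 2 in the median gene, and in the quintile with the highest (54.2 to 69.4%) it lay 0.52 above. WT replicates 1 and 2 showed the same order, from -0.09 to 0.29. Within replicate 1, KO minus WT ran from -0.01 in the lowest to 0.22 in the highest GC quintile, while within replicate 2 it ran from 0.04 to -0.03. For transcript length the direction was the same in both replicates: KO minus WT went from -0.05 in the shortest quintile (201 to 1295 bases) to 0.11 in the longest (4441 bases and above) in replicate 1, and from -0.09 to 0.11 in replicate 2. Pooled, the median ratio difference was -0.08, 0.00, 0.05, 0.06 and 0.11 from the shortest to the longest quintile. Preexisting RNA went from -0.28 to 0.24, labelled RNA from -0.21 to 0.13 and intronic labelled signal from 0.19 to 0.37 over the same groups. The difference between cultures of 1 genotype also moved with length, from 0.25 to -0.01 between the KO cultures and from 0.22 to -0.02 between the WT cultures.

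**Figure D2:**
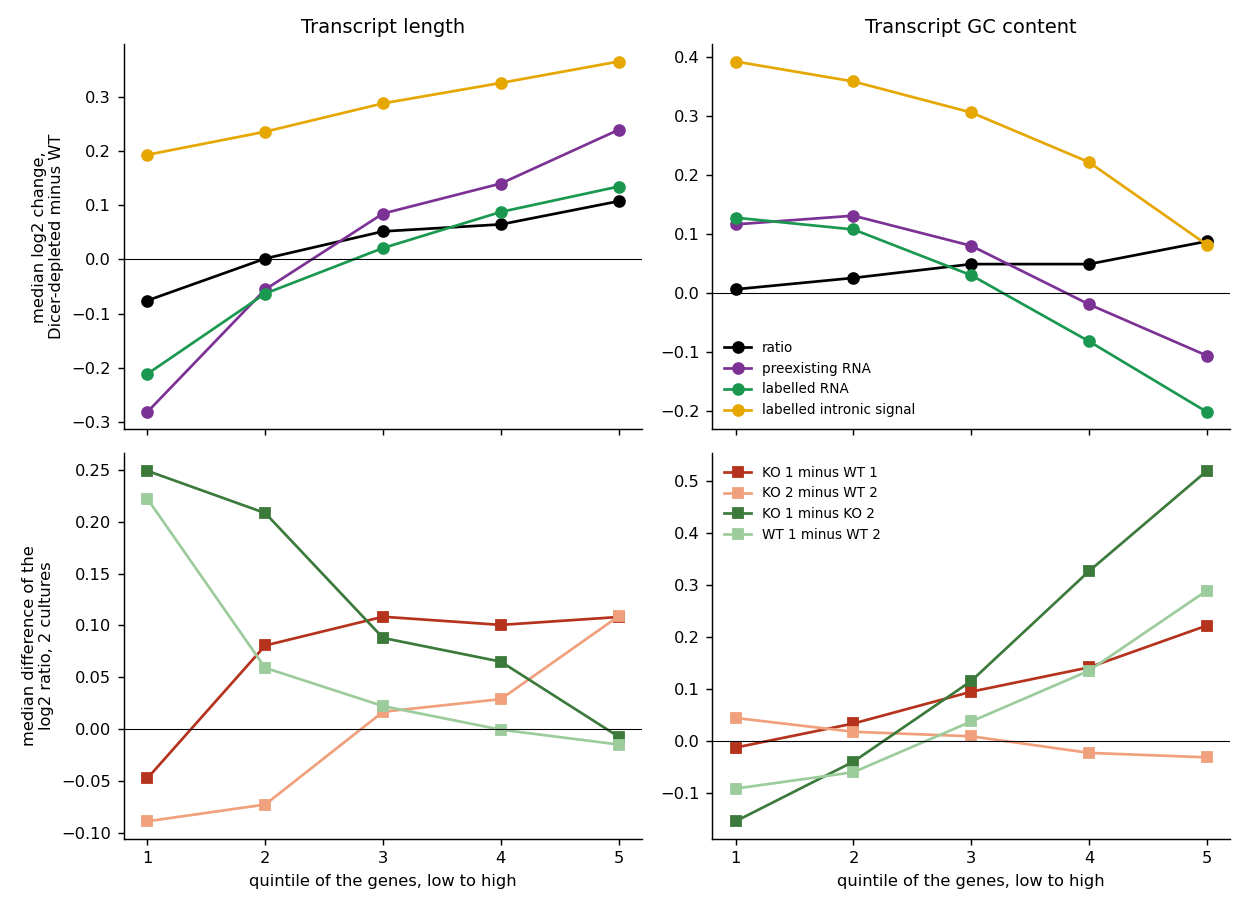
Medians over the 7378 genes with a scored transcript, split into 5 equal groups by transcript length (left) and GC content (right). The upper row gives the KO minus WT difference in the ratio, in each fraction and in intronic labelled signal (log2), and the lower row the difference in ratio between 2 cultures, where the line for KO 1 minus KO 2 runs from -0.15 to 0.52 with GC content.

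The genes of smallest p in each direction are described next; they were picked for their ratio, so their values are a description. The 12 with a higher ratio in KO had differences of 1.02 to 1.84 and adjusted p of 0.609 to 0.998 (limma). Rad51d (chr11:82876434-82890614, minus strand), a gene needed for DNA repair by homologous recombination, had ratios of -0.21 and -0.50 in WT and 1.29 and 1.15 in KO, a difference of 1.57 (SE 0.24, adjusted p = 0.609). Its preexisting level was 10.2 and 12.17 TPM in the WT cultures and 20.7 and 26.3 TPM in the KO cultures, whereas its labelled level was 11.8 and 17.5 TPM in WT and 7.43 and 11.5 TPM in KO. Preexisting RNA was thus higher and labelled RNA lower in both KO cultures, the latter by a narrow gap. Single libraries overlapped in both fractions. Preexisting RNA was at 29.0 and 12.5 TPM in KO replicate 1 at 10 and 15 minutes, and at 7.47 to 14.1 TPM in WT libraries. Labelled RNA was at 5.68 to 14.7 TPM in KO and 9.52 to 20.1 TPM in WT libraries.

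Several of the higher genes were also higher in newly made RNA. Irak2, a kinase of interleukin-1 and Toll-like receptor signalling, had ratios of -0.58 and -0.90 in WT and 0.77 and 0.41 in KO. It was at 7.75 and 3.93 TPM in WT and 37.8 and 24.3 TPM in KO preexisting RNA, and at 12.16 and 8.07 TPM against 21.1 and 18.5 TPM in labelled RNA. Elk4, an ETS factor that acts with serum response factor, had nearly identical ratios within genotypes, -1.01 and -0.9996 in WT and 0.12 and 0.10 in KO, with preexisting levels of 13.4 and 14.2 TPM against 51.4 and 42.4 TPM. Zkscan1, a zinc finger gene with 3 miR-290 matches, had ratios of -0.98 and -1.39 in WT and 0.44 and -0.08 in KO. Its preexisting level was 11.5 and 14.9 TPM in WT and 36.9 and 35.9 TPM in KO, and its labelled level of 22.9 and 40.5 TPM against 25.8 and 38.1 TPM overlapped. Syap1 had -0.23 and -0.24 in WT and 0.76 and 0.95 in KO, and Acsf2, an acyl-CoA synthetase family member, 0.29 and 0.47 against 1.58 and 1.35. The others included Inpp5e (a phosphoinositide phosphatase of cilia), Tnni3 (cardiac troponin I), Blvra (biliverdin reductase), Fam98c and Ndufaf6 (an assembly factor of respiratory complex I). Preexisting RNA was higher in KO for 11 of the 12 and labelled RNA for 5. A miR-290 match lay in the 3′ UTR of 4 of the 12 (Irak2, Syap1, Acsf2 and Zkscan1), against 13.2% of all scored genes. The scored 3′ UTR of Elk4 was only 10 bases long. Gene bodies of other coding genes overlap Inpp5e, Acsf2, Elk4, Tnni3 and Fam98c, and their reads may not be separable.

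**Figure D3:**
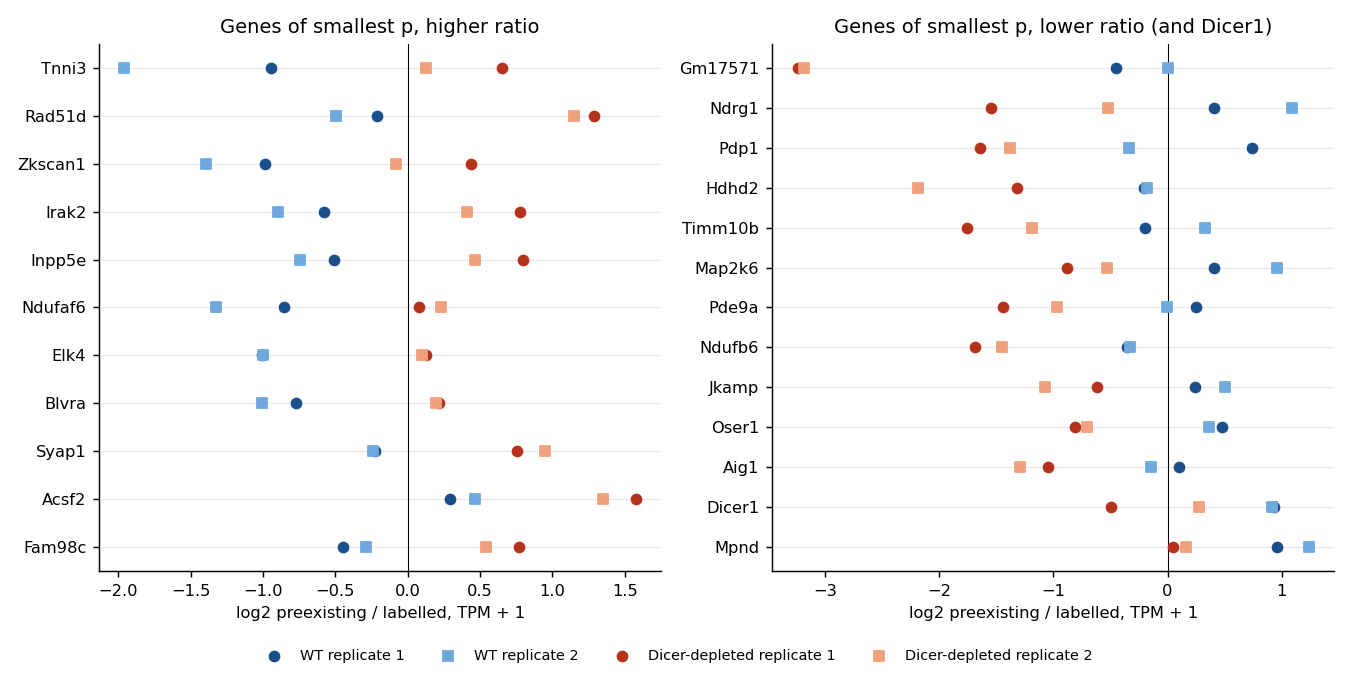
Ratio of 23 of the 24 genes of smallest p and of Dicer1 in each of the 4 cultures (x, log2 of preexisting over labelled TPM + 1; circles replicate 1, squares replicate 2). Blue WT and red KO points do not overlap in any of the 24 genes shown, which for the 23 is the rule by which they were chosen.

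The 12 genes with a lower ratio in KO had differences of -2.99 to -0.998 and adjusted p of 0.419 to 0.998 (limma). The lowest value, Gm17571 (chr9:13444034-13446753, minus strand), rests on libraries listed at 0. In labelled RNA it was at 27.4, 52.0, 56.0 and 22.5 TPM in the KO libraries and at 0, 17.1, 0 and 0 TPM in WT; in preexisting RNA it was at 15.8, 0, 0 and 15.2 TPM in KO and at 8.67, 0, 0 and 0 TPM in WT. This predicted gene lies inside the body of Maml2, has no scored 3′ UTR, and differed by -4.93 at 10 and -1.04 at 15 minutes. Ndufb6, a subunit of respiratory complex I, had ratios of -0.35 and -0.33 in WT and -1.69 and -1.45 in KO; its preexisting level was 19.4 and 17.3 TPM against 8.10 and 7.69 TPM, while its labelled level of 25.03 and 21.8 TPM against 25.7 and 22.9 TPM overlapped. Oser1, an oxidative stress responsive gene, had 0.48 and 0.36 in WT and -0.81 and -0.71 in KO. Map2k6, the kinase that activates p38, had 0.41 and 0.96 in WT and -0.88 and -0.53 in KO. Timm10b, a mitochondrial import chaperone, had -0.20 and 0.33 against -1.76 and -1.18, and Pdp1, a phosphatase that activates pyruvate dehydrogenase, had 0.74 and -0.34 against -1.64 and -1.38. The other 6 were Pde9a (a cGMP phosphodiesterase), Mpnd, Jkamp, Hdhd2, Aig1 and Ndrg1. Preexisting RNA was lower in KO for 11 of the 12, Gm17571 being the exception, and labelled RNA for 4. Other coding genes overlap Timm10b, Ndufb6, Mpnd and Jkamp, and another coding entry of the same name overlaps Hdhd2. None of the 11 with a scored 3′ UTR held a miR-290 match. The scored 3′ UTR was only 10 bases in Aig1, 12 in Mpnd and 188 in Ndufb6, which leaves little room for one. In 10 of the 12 higher and 11 of the 12 lower genes the difference was larger at 10 than at 15 minutes.

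Gene lists are described by their median ratio difference, which was followed over 10 alternatives in 21 of the 22 lists: 5 medians had the same sign throughout and 16 took the opposite sign in at least 1. Where a list's count of genes without overlap is given, it is to be set against the shares of all 7516 genes, 19% with KO higher and 12.9% with KO lower.

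The microRNA silencing machinery had more positive than negative differences. Of 15 listed genes 13 were measured, 0 passed the threshold, 11 had a positive and 2 a negative difference, and the median was 0.12 against 0.04 for all 7516 genes. Cultures did not overlap in 5 of the 13 with KO higher and in 1, Dicer1, with KO lower (19% and 12.9% of all 7516 genes). The median was 0.31 in the 10 minute and -0.05 in the 15 minute libraries, 0.05 after centring and 0.02 without KO replicate 1, so its sign depends on the labelling time. Ago1, an Argonaute gene, had ratios of -0.10 and -0.08 in WT and 1.16 and 0.54 in KO (difference 0.94, SE 0.29), with preexisting levels of 13.9 and 18.6 TPM against 52.3 and 34.4 TPM. Tnrc6a, the scaffold that links Argonaute to deadenylases, had 0.05 and 0.11 against 0.63 and 0.78 (difference 0.62, SE 0.23), and Tnrc6b 0.24 and 0.28 against 0.54 and 0.85. Ago2 differed by 0.20, Ago3 and Tnrc6c by 0.01. Drosha and Xpo5, which act before Dicer, each differed by 0.12. Tarbp2, the partner of Dicer, differed by -0.82 with overlapping cultures.

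Enzymes that carry out mRNA decay were near the median of all genes. Of 23 measured genes 15 were positive and 8 negative, 0 passed the threshold, and the median was 0.03, with the opposite sign in 5 of 10 alternatives. Cnot1, the scaffold of the CCR4-NOT deadenylase, had ratios of 0.83 and 0.93 in WT and 0.89 and 0.94 in KO. The exonuclease Xrn1 had -0.30 and -0.11 against -0.29 and -0.08. Ddx6, the helicase that couples CCR4-NOT to decapping, had 0.92 and 1.00 against 0.60 and 0.79, and the decapping cofactor Dcp1a 0.69 and 0.85 against 0.38 and 0.23; in these 2 the KO cultures lay below the WT cultures. In 3 genes, Cnot6l and Zfp36l1 among them, they lay above. Of the 23 genes, cultures thus did not overlap in 3 with KO higher and 2 with KO lower (19% and 12.9% of all 7516 genes).

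Among genes named in earlier work as targets of the miR-290 family, 14 were measured. Some of that work used embryonic stem cells of this kind, so the list is not independent evidence of direction. None passed the threshold; 12 had a positive and 2 a negative difference, with a median of 0.22, and cultures did not overlap in 6 of the 14, all with KO higher (19% of all 7516 genes). The median ran from 0.15 after centring to 0.52 in the 10 minute libraries. The median was 0.67 in preexisting and 0.37 in labelled RNA, so new RNA of these genes was higher as well. Casp2, a caspase, had ratios of -0.92 and -1.04 in WT and 0.02 and -0.12 in KO, with preexisting levels of 16.1 and 17.5 TPM against 31.8 and 39.0 TPM and overlapping labelled levels of 30.4 and 36.7 TPM against 31.0 and 42.3 TPM. Cdkn1a, the CDK inhibitor p21, had 0.65 and 0.99 against 1.68 and 1.28, and was at 32.5 and 58.3 TPM against 183 and 170.0 TPM in preexisting and 20.2 and 29.0 TPM against 56.6 and 70.5 TPM in labelled RNA; the transcript scored here, with a 3′ UTR of 308 bases, holds no match. Ei24 had 0.73 and 0.70 against 1.15 and 1.03. Mbd2, a reader of methylated DNA, had -0.22 and -0.56 against 0.17 and 0.78.

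Not every gene of this group had a higher ratio. Rbl2, the pocket protein p130, had the largest mean difference of the list, 1.05 with an SE of 0.54, and rests on 1 culture: its ratios were -0.64 and -1.15 in WT and -0.59 and 0.90 in KO. The Hippo kinase Lats2, with 2 matches, had 0.05 and -0.11 in WT and 0.47 and -0.54 in KO, a difference of 0.00, although its preexisting level was 3.34 and 2.96 TPM against 13.1 and 6.42 TPM; its labelled level was 3.27 and 3.14 TPM against 8.60 and 10.0 TPM. Wee1, the kinase that holds back mitosis, had 0.73 and 0.94 against 0.52 and 0.77.

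Cell cycle and p53 genes were mixed. Of 17 measured G1/S regulators 10 were positive and 7 negative, with a median of 0.11, and of 15 measured p53 targets, a list that shares Cdkn1a and Ei24 with the targets just described, 9 and 6, with a median of 0.10. Cultures did not overlap in 7 of the 17 G1/S genes with KO higher and 3 with KO lower (19% and 12.9% of all 7516 genes). For the 15 p53 targets these counts were 4 and 0. The G1/S median was -0.02 in the 15 minute libraries and the p53 median -0.07 without KO replicate 1. Cyclins D2 and E2 (Ccnd2, Ccne2) had a higher ratio in both KO cultures, by 0.26 and 0.52. Cdkn1b, the CDK inhibitor p27, had 0.20 and 0.55 in WT and -0.19 and -0.19 in KO. Trp53 had 1.15 and 1.06 against 1.502 and 1.30. Perp and Pmaip1, both p53 targets, differed by 1.39 and 0.91 in preexisting and by 1.66 and 1.03 in labelled RNA, with ratio differences of -0.28 and -0.12.

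Genes of stem cell identity were on both sides. In the naive pluripotency list, 20 genes measured, 12 were positive and 8 negative, 0 passed the threshold and the median was 0.04, equal to that of all genes and between -0.12 (15 minutes) and 0.28 (10 minutes) over the alternatives. Sox2 had 0.44 and 0.46 in WT and 0.14 and 0.47 in KO, Nanog 1.03 and 0.69 against 1.10 and 1.02, and Klf4 1.05 and 0.72 against 1.09 and 0.65. Utf1 had 1.48 and 1.45 against 1.82 and 1.89, and Zfp42 (Rex1), a marker of the naive state, -0.35 and -0.47 against -1.05 and -0.66. These and Tfcp2l1 were the 3 of 20 whose cultures did not overlap. KO was higher in 2 and lower in 1 (19% and 12.9% of all 7516 genes). Only 4 primed epiblast genes were high enough, 1 positive and 3 negative, with a median of -0.10, and they lay at -0.86 in preexisting and -0.74 in labelled RNA.

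Other regulators were described by list. The Wnt list had 9 positive and 4 negative of 13, a median of 0.19, and 5 of 13 genes without overlap, all with KO higher (19% of all 7516 genes). Its median was 0.43 in the 10 minute and 0.07 in the 15 minute libraries, 0.31 without WT replicate 1 and 0.09 without KO replicate 1. Znrf3, a ligase that removes Wnt receptors, had ratios of -1.01 and -0.78 in WT and -0.01 and -0.09 in KO. Tcf7l2, which differed by 1.56 in preexisting and 1.18 in labelled RNA, had a ratio difference of 0.38. Basement membrane genes had 7 positive and 2 negative of 9 and a median of 0.14, beside 0.60 in preexisting RNA. Their ratio median was 0.30 at 10 and 0.02 at 15 minutes. Cultures did not overlap in 4 of the 9 with KO higher and 1 with KO lower (19% and 12.9% of all 7516 genes). Nid1 (nidogen) had 0.69 and 0.75 against 0.97 and 1.04, with preexisting levels of 17.4 and 13.0 TPM against 54.2 and 55.8 TPM. Sparc differed by 0.96 in preexisting and 0.92 in labelled RNA, and by 0.04 in the ratio. Genes of DNA methylation and its removal had a median of 0.15 over 10, and polycomb genes 0.07 over 15. Tet1, an enzyme that oxidizes 5-methylcytosine, had 0.43 and 0.49 against 0.61 and 0.87. SR splicing factors had a median of -0.02 over 12 and immediate early genes -0.07 over 6. Zinc finger genes named Zfp, 223 of them, had 134 positive and 89 negative and a median of 0.06. Cultures did not overlap in 50 of the 223 with KO higher and 28 with KO lower, beside the same 2 shares of all genes. Zfp248 had -1.87 and -1.73 against -0.25 and -0.96.

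Genes of the cytosolic ribosome and of mitochondrial respiration had more negative than positive differences. Of 85 measured cytosolic ribosomal protein genes 16 were positive and 69 negative, 0 passed the threshold and the median was -0.14; cultures did not overlap in 3 of the 85 with KO higher and 12 with KO lower, the latter a share close to the 12.9% of all 7516 genes. The median was 0.04 without WT replicate 1, 0.02 without KO replicate 2 and -0.01 in the 10 minute libraries, so its sign rests on single cultures. In preexisting RNA the list lay at -0.69 and in labelled RNA at -0.55. Rpl22l1 had ratios of -0.81 and -1.09 in WT and -1.78 and -1.74 in KO, and Rps13 0.00 and -0.53 against -0.65 and -0.97. Nuclear genes of respiratory complexes I to V had 16 positive and 59 negative of 75, a median of -0.19, and no overlap in 2 of the 75 with KO higher and 23 with KO lower (19% and 12.9% of all 7516 genes). This median was negative in all 10 alternatives, from -0.31 without KO replicate 1 to -0.07 in the 10 minute libraries. Uqcrq, a subunit of complex III, had -0.10 and -0.63 against -1.14 and -1.10. Mitochondrial ribosomal proteins were 24 positive and 38 negative of 62 with a median of -0.05, and proteasome subunits 14 and 20 of 34 with a median of -0.03; both medians took the opposite sign in 3 of 10 alternatives, at 0.05 and 0.02 without WT replicate 1 and at 0.10 and 0.04 without KO replicate 2. Transcripts of the first 2 lists are short: the median length was 710 bases for cytosolic ribosomal proteins and 659 for the respiratory chain, against 2558 for all genes. The shortest quintile of all genes had a median of -0.08. WT replicate 1 lay above WT replicate 2 by a median of 0.32 for the cytosolic ribosomal proteins and 0.26 for the respiratory chain, and KO replicate 1 above KO replicate 2 by 0.29 and 0.18; the part of length in the difference was not tested.

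The 53 replication-dependent histones stood highest and were also the list with the widest spread between WT cultures. They had 44 positive and 9 negative differences and the highest median of all 22 lists, 0.32, yet in 0 of the 53 did the genotypes' cultures separate. The sign of this median turned with the cultures and the labelling time: it was -0.26 without WT replicate 2, -0.05 without KO replicate 1 and -0.18 in the 15 minute libraries, against 0.84 in the 10 minute libraries, 0.68 without WT replicate 1 and 0.65 without KO replicate 2. WT replicate 1 lay 1.03 above WT replicate 2 in the median histone gene, and KO replicate 1 lay 0.59 above KO replicate 2. These mRNAs end in a stem-loop and carry no poly(A) tail, and their copies share much of their sequence, so single genes are uncertain. In glycolysis the 2 fractions were lower together, at -0.64 in preexisting and -0.70 in labelled RNA, with a ratio median of 0.09 over 15 genes, and KO replicate 1 lay 0.65 above KO replicate 2; the ratio median was -0.31 without KO replicate 1 and 0.39 without KO replicate 2. Pgk1, phosphoglycerate kinase, had a mean preexisting level of 153 TPM in WT cultures, 71.5 TPM in KO cultures, and mean labelled levels of 111 and 58.8 TPM. Cholesterol synthesis genes had a median of 0.07 over 18, and translation factors 0.03 over 53.

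**Figure D4:**
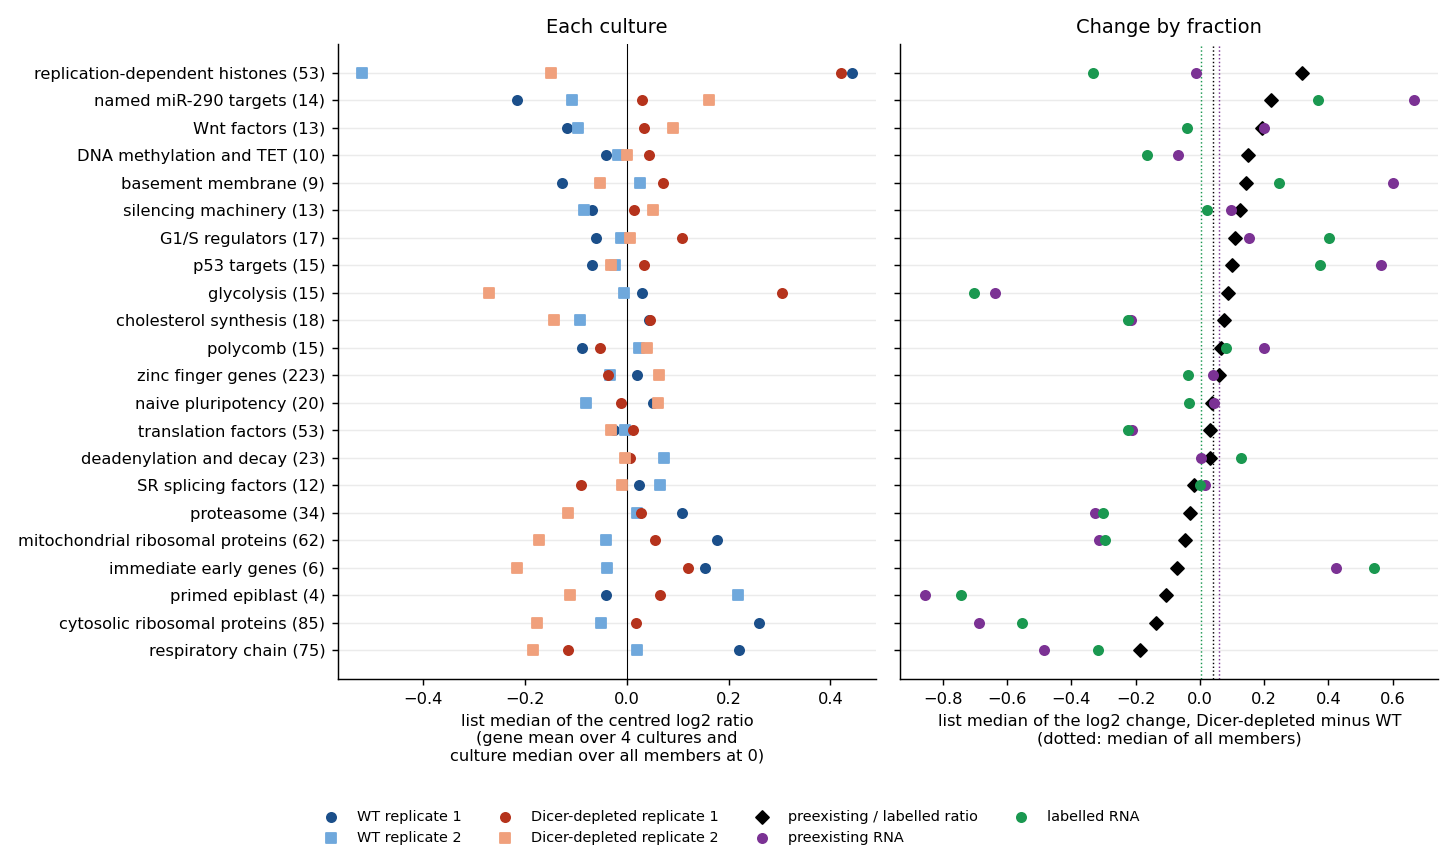
Left, median centred ratio of each of 22 gene lists in the 4 cultures, after the mean of each gene over cultures and the median of each culture over all genes were set to 0; blue WT, red KO, circles replicate 1, squares replicate 2. Right, median log2 difference KO minus WT in the ratio, preexisting and labelled RNA, with dotted lines at the medians of all 7516 genes; histones lead at 0.32 with cultures that separate by replicate number, and the respiratory chain is lowest at -0.19.

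Genes with a microRNA match in the 3′ UTR were then compared with those without, among the 7378 genes whose 3′ UTR could be scored. A 7-base miR-290 match was present in 974 (13.2%). Their median ratio difference was 0.11 and that of the 6404 others 0.03, a gap of 0.075. The difference was positive in 64.1% of them and in 53.7% of the others. Cultures did not overlap, with KO higher, in 28.0% (17.6% of the others) and with KO lower in 8.21% (13.5%); 0 passed the threshold. In preexisting RNA the medians were 0.26 with and 0.02 without a match, in labelled RNA 0.16 and -0.02, and in intronic labelled signal 0.34 and 0.28. Labelled RNA of the matched genes was thus higher too, and the ratio holds the smaller share of the preexisting difference. Matched genes are longer, and the intronic excess was not seen in every group of transcript length. From the shortest to the longest of 5 groups, intronic medians were 0.14, 0.21, 0.31, 0.36 and 0.36 with a match. Without a match they were 0.19, 0.24, 0.28, 0.32 and 0.37. Labelled RNA was higher with a match in each group. Without KO replicate 1 the gap was 0.148, and without KO replicate 2 it was 0.0351, so its size rests largely on KO replicate 2.

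Length and number of matches were described next. An 8-base match, that is a 7-base match followed by A, was present in 198 genes with a median of 0.15, and any 6-base match in 1914 genes with 0.09. Genes with 1 match (810) had a median of 0.09, those with 2 matches (118) 0.24 and those with 3 or more (46) 0.15. With 2 matches, cultures did not overlap with KO higher in 39.8% and with KO lower in 5.08%. Centred on genes without a match, genes with 2 matches lay at -0.09 and -0.08 in the WT cultures and 0.08 and 0.13 in the KO cultures, so both KO cultures were above both WT cultures. Genes with 1 match lay at -0.06 and -0.01 in WT and -0.02 and 0.10 in KO, where KO replicate 1 falls among the WT cultures. The median transcript was 5351 bases long with 2 matches and 2344 without a match. The number of matches was not compared within groups of length.

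Families were then set side by side. The gap was 0.084 for miR-17/93 (843 genes), whose site overlaps that of miR-290, and 0.047 for miR-25/92 (407 genes). In 451 genes with both a miR-290 and a miR-17/93 match the median difference was 0.14; in 523 with the former alone it was 0.08 and in 392 with the latter alone 0.10. The gap was 0.046 for miR-130, 0.035 for miR-148, 0.030 for miR-183, 0.025 for miR-30, 0.021 for miR-21, 0.006 for miR-27 and 0.004 for miR-182, although miR-182 had the most reads of all at day 0 (38078 RPM). For 4 families with at most 2.86 RPM at day 0, the gap was 0.043 (miR-9), 0.029 (miR-208), 0.020 (miR-206) and -0.010 (miR-223). The miR-290 and miR-17/93 gaps were above all 4 of these, and those of miR-25/92 and miR-130 were close to that of miR-9. This order holds for the main setting. The miR-290 gap was 0.048 in the 10 minute libraries, 0.100 in the 15 minute libraries and 0.0351 without KO replicate 2. The 4 families were not followed over these alternatives, nor within groups of transcript length. Genes with a miR-290 match had longer transcripts (median 4143 against 2344 bases). Within 5 groups of transcript length the gap was 0.019, 0.042, 0.121, 0.055 and 0.017 from short to long, positive in each, with 34 matched genes in the shortest quintile and 440 in the longest.

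**Figure D5:**
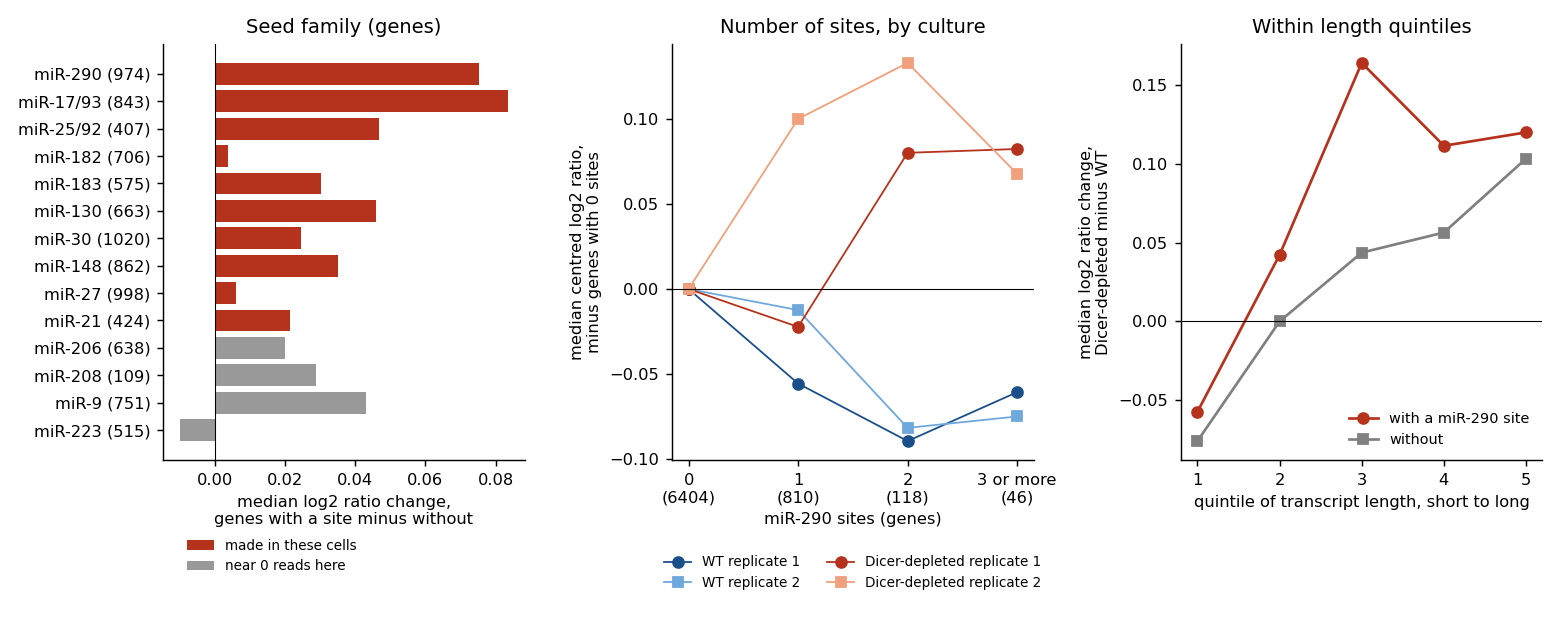
Left, median ratio difference of genes with a 7-base match minus that of genes without, for 14 seed families (number of genes with a match in brackets; grey, families with at most 2.86 RPM at day 0). Middle, median centred ratio by number of miR-290 matches in each culture, relative to genes without a match; right, median ratio difference with and without a match in 5 groups of transcript length, where the line with matches lies above the other in all 5.

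Labelling for 15 and for 10 minutes was compared. The difference of the ratio change between 15 and 10 minutes passed the threshold in 0 of 21821 genes (0%) and had an unadjusted p under 0.05 in 776 (3.56%). The median difference between genotypes was 0.10 at 10 and -0.03 at 15 minutes, and the median absolute difference 0.33 and 0.23. WT cultures differed by a median of 0.46 from each other at 10 and 0.32 at 15 minutes, and KO cultures by 0.48 and 0.46.

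The genes with the highest and lowest WT ratio were chosen on that ratio. Lars2, the mitochondrial leucyl-tRNA synthetase, had the highest WT ratio at 3.10 and 3.23, and 2.95 and 3.43 in KO; its preexisting level was 604 and 763 TPM in WT. The next were Gm17087, Hist1h4d, Laptm5 and Cldnd1, with WT means of 1.91 to 2.14. The lowest were H2-T24, a class I-like gene, at -2.89 and -2.88 in WT and -2.94 and -3.01 in KO, followed by Cryba1, Eml6, Spaca6 and Tnfrsf18 with WT means of -2.79 to -2.54. Coding genes overlap Gm17087, Cryba1 and Eml6, and reads of introns or neighbours can enter such values.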

How the data were processed

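The authors deposited, for the 16 4sU libraries, a signal per exonic and intronic entry; 10 units were taken as 1 TPM, from the column sums. Per the labels' protocols, STAR 2.5.0 took out ribosomal reads, and remaining reads were mapped with STAR and quantified by RSEM; build and annotation of this table are not given in the sources used here. Of 121429 exonic entries 110366 matched GENCODE M21 and were summed per gene. Genes and entries with a mean of at least 1 TPM were tested with limma 3.58.1 (trend, R 4.3.3) on 4 culture values with a pseudocount of 1 TPM, a threshold of 0.05 and two-sided p-values adjusted by Benjamini and Hochberg, after the code was tested on simulated data. The p-values measure the spread between these cultures only. Fold changes on the log2(TPM + 1) scale understate those of low genes.

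Small RNA values are raw counts that the authors deposited (cutadapt 1.8, Bowtie2, mm10, HTSeq, per the labels); they were divided by all reads of a library. Target matches were searched on the sense strand of the 3′ UTR of each gene's transcript with the highest signal, as the 7 bases that pair with seed bases 2 to 8. The genes named are Dicer1, genes of the lists, the 12 genes of smallest p in each direction among those without overlap between genotypes, with the same sign at 10 and 15 minutes and at least 5 TPM in each fraction in the genotype where it is higher, and the 5 highest and 5 lowest by WT ratio. The members and the 22 lists were chosen with earlier results of these data known; the ribosomal and translation lists were trimmed of kinase genes after values were seen. Replicate numbers correlated at 0.28 in their deviations, and the labels do not say whether a shared number pairs the cultures. Alternatives varied the pseudocount, filter, scaling, labelling time, replicate block, model and cultures. Python 3.11.15, numpy 2.4.6, pandas 2.3.3 and matplotlib 3.10.9 were used. A few of the genes these rules name, and 1 target site, are not reported here.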

Additional observations from a re-analysis of the deposited data

How the results depend on the processing

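The count of genes past the threshold for the ratio was 0 under pseudocounts of 0.5 and 5 TPM, no filter on low values, a fit over the 7516 genes alone, centred or exonic-only scaling, either labelling time and every omission of 1 culture; 1 planned model of all 8 culture means called 1 (0 higher, 1 lower), Gm47294, which is not among the 7516. In preexisting RNA, a fit over the 7516 genes alone called 35 (32 higher, 3 lower). The model of 8 means has no term for the culture and was added for single fractions after seeing the data. It called 141 (109 and 32), 90 of them among the 7516. In labelled RNA these gave 99 (77 and 22) and 28 (20 and 8), the 15 minute libraries alone 20 (8 and 12), and leaving out each culture 0 to 106, with 106 without KO replicate 2. Intronic labelled signal gave 1 at a pseudocount of 0.5 TPM and 0 to 9 on leaving out a culture, with 8 without KO replicate 1 and 9 without KO replicate 2. The labels do not say whether a number shared by replicates pairs them. With the replicate block the ratio, preexisting and labelled counts stayed 0 (1297, 3138 and 4845 at an unadjusted p under 0.05). The intronic count became 4050 (3713 higher, 337 lower) and that of the time difference 4 (1 and 3). The miR-290 gap ranged from 0.0351 to 0.148 on leaving out a culture. No named gene of smallest p changed sign, but these genes were chosen for cultures without overlap and the same sign at both labelling times. Leaving out a culture or using 1 labelling time therefore could not change their sign. The medians of 16 of 21 gene lists took the opposite sign in at least 1 of 10 alternatives. Histones ran from -0.255 to 0.837 and glycolysis from -0.315 to 0.391. The cause of these shifts was not tested. Unknown depth limits what can be said of low genes.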

Other observations

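Some genes were higher in KO in both fractions with little difference in ratio. Among the 7516 genes, 11 predicted genes with shared sequence of the Gm series had preexisting differences of 2.58 to 2.96; they were picked out after these values were seen. They included Gm11168, Gm10717, Gm10719 and Gm10801 and share 39.7 to 96.0% of their 21-base words with one another, so reads may not be separable among them and they are not 11 independent measurements. Labelled RNA differed by 2.43 to 2.76. Their ratio was low in WT, from -1.41 to -1.01 in replicate 1 and -1.53 to -0.96 in replicate 2. In KO it was -1.76 to -1.55 in replicate 1 and -0.79 to -0.36 in replicate 2, so the KO cultures lay on either side of the WT cultures and the mean differences of 0.01 to 0.30 are smaller than this spread. For 0 of the 11 was the unadjusted p under 0.05 (limma; 0.549 to 0.988).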
